A study of Homo sapiens with 32 samples.

Results

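The 10 TGF-beta and SMAD genes TGFB1, TGFB2, TGFBR1, TGFBR2, SMAD2, SMAD3, SMAD4, SMAD6, SMAD7 and SKI were followed through 16 lists of m6A peaks. They are 10 of the 20037 protein-coding genes of the RefSeq gene table, and they were chosen by name for their place in the pathway. A peak counted for a gene where it overlapped the gene body, from first to last annotated base, by at least 1 bp. All 10 genes had a peak in at least 1 library, as had 13420 of the 20037 genes. The 10 genes held 728 of the 474004 listed peaks, and these 728 peaks were between 233 and 2061 bp long with a median of 410 bp.

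TGF-beta ligands are secreted in a latent form and, once released, bind a pair of serine/threonine kinase receptors. The type II receptor TGFBR2 binds the ligand and phosphorylates the type I receptor TGFBR1, which in turn phosphorylates SMAD2 and SMAD3. These join SMAD4 and enter the nucleus, while SMAD6 and SMAD7 dampen the signal and SKI holds SMAD complexes in a repressive state. In kidney tubule cells the pathway is known for growth arrest, matrix production and loss of epithelial character. N6-methyladenosine (m6A) is a methyl mark on adenosine in RNA that is read by proteins acting on splicing, export, decay and translation.

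m6A was measured by MeRIP-seq, in which RNA fragments are pulled down with an antibody to m6A (IP) and compared with untreated fragments (Input). The 16 IP libraries came as pairs from 8 lines, 4 of the clear cell renal cell carcinoma line 786-O and 4 of RPTEC, a renal proximal tubule epithelial line immortalized with hTERT. In each cell line these were WT, the CRISPR/Cas9 knockout clones SETD2KO-1 and SETD2KO-2, and SETD2KO-1R, which is SETD2KO-1 given back FLAG-tagged full-length SETD2 and grown from a clone. SETD2 is the methyltransferase that trimethylates lysine 36 of histone H3. The 4 SETD2KO libraries of a cell line were set against its 4 SETD2-expressing libraries, which are WT and SETD2KO-1R. Each line is a single clone or the parental culture, and the knockout clones of 1 cell line are no replicates of those of the other. Any difference in culture between 786-O and RPTEC cannot be told apart from cell line. The labels do not say whether the 2 libraries of a line came from separate cultures, so that p-values measure the spread between libraries, which may be technical.

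Lists held 25710 to 39670 peaks in 786-O and 19249 to 31207 in RPTEC. The lists give no read counts, so the depth behind a peak is unknown, and a gene without a peak may be unmethylated or too weakly covered to be called. In bulk libraries of this kind fewer cells with a transcript and less of it per cell cannot be told apart. Peaks in the SETD2 gene itself were called in all 16 libraries, 4 to 10 in the SETD2KO and 7 to 11 in the SETD2-expressing libraries, so that presence of peaks at SETD2 does not separate the labels. Of 13 renal tubule markers 9 were called in every 786-O library and 9 in every RPTEC library, AQP1 and LRP2 in none. KRT19 was called in 2 of 8 786-O and 8 of 8 RPTEC libraries, VIM in 8 and 6, and CUBN in 1 and 0. Of 10 markers of fibroblasts, endothelium and leukocytes 3 had a peak in some 786-O library and 4 in some RPTEC library. CD68 was called in 8 of 8 786-O and 7 of 8 RPTEC libraries, PDGFRB in 5 and 4, COL1A1 in 1 and 6, and CDH5 in 0 and 4. COL3A1, DCN, PECAM1, VWF, PTPRC and CD3E were called in none. The part of such cells in the results was not tested. In 786-O 1 library stood apart at these genes. 786-O SETD2KO-2 replicate 2 held 33 peaks in the 10 genes, against 51 to 70 in the other 3 SETD2KO libraries of 786-O, and its list was the shortest of those 4, with 28934 peaks. Values without it are given beside the results on SMAD3, SMAD4 and SMAD6, the summed peaks, and the comparison of SETD2KO effects between the cell lines. In RPTEC, SETD2KO-1 replicate 1 held 24 and SETD2KO-2 replicate 2 held 23 peaks in the 10 genes, or 9.75 and 11.9 per 10000 listed peaks. The other SETD2KO libraries of RPTEC held 47 and 44, or 15.4 and 16.7 per 10000. The RPTEC results include both low libraries, and no values without both are given.

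The first bases of the transcripts were searched for words of the m6A consensus because 8 of the 10 genes had a peak within 500 bp of the gene start in at least 10 libraries, and because these windows were the genomic sequence at hand. RefSeq promoter windows of build GRCh38 were at hand for 9 of the 10 genes, in 24 entries, as several genes have more than 1 start. The 12 words searched began with GGAC or with AGAC, with GAAC or else with AAAC, and each of these ended in A, in C or in T. Both strands were searched within the 50 bases after each start. On the transcribed strand 7 of the 24 entries held a word, against 40.8% of all 35116 entries. On the other strand 12 of the 24 did, against 41.4%, and 15 of the 24 held a word on either strand, against 67% of all entries. Words can share bases with one another. The 4 stretches below show the word under the most peaks, a word at a downstream start of SMAD3, the TGFBR1 word that lay under a peak, and the TGFBR2 word that did not. They are written 5′ to 3′ on the transcribed strand with T for U, and capitals mark the words.
SMAD3 at chr15:67065602-67065623, plus strand: gAAACAcAGACTgggagcgggc
SMAD3 at chr15:67166531-67166554, plus strand: acacatttcAGACTtgggagttga
TGFBR1 at chr9:99104452-99104476, plus strand: tctgggtttgGAACTgggtggggga
TGFBR2 at chr3:30606372-30606396, plus strand: ttggagcgagGAACTcctgagtggt

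The stretch at the first SMAD3 start, with its 2 words, lay inside a peak of 8 libraries, 6 of them 786-O and 2 of them RPTEC. The second SMAD3 word lay inside a peak of 4 libraries and the TGFBR1 word inside a peak of 2. The TGFBR2 word lay inside a peak of none, as the peaks there began further into the gene. TGFB1 and TGFB2 had a peak over these first 50 bases in 16 and 15 libraries, and their windows held no word on the transcribed strand. That says only that these letters are not in those 50 bases, since peaks are longer than that window.

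The genes differed in where their peaks lay. Of the 728 peaks 208, or 28.6%, began within 5 kb of the gene start. The share was highest for TGFBR1 with 13 of 17 peaks and for SMAD6 with 39 of 66 peaks. It was lowest for SMAD2 with 4 of 47 peaks and for SMAD3 with 21 of 167 peaks. Within 500 bp of the gene start, TGFB1, SMAD7 and SKI had a peak in all 16 libraries, TGFB2 in 15, SMAD6 in 14, SMAD4 in 12, SMAD3 in 11, TGFBR2 in 10, SMAD2 in 4 and TGFBR1 in none. For SKI the strand was not in the tables used here, and its start was taken as the end with the lower coordinate. Of the 9 genes with a strand, 2 to 8 had a peak within 500 bp of the start, depending on the library, with a median of 6.5. Over all genes with a strand and a peak the share was 15.4% to 40.1%, with a median of 30.7%. Within 500 bp of the gene end at most 1 of the 9 genes had a peak in any library, against 9.5% to 19% of all such genes.

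When peaks of all 16 libraries were merged where they overlapped, the 10 genes held 133 regions. Of these, 29 were called in at least 10 libraries, which is 21.8%, against 15.7% of the 99258 regions of the genome. In all 16 libraries 10 regions were called, which is 7.52%, against 4.25% of all regions. The 10 regions lay in TGFB1, TGFB2, SMAD2 and SKI with 2 each, and in SMAD3 and SMAD7 with 1 each. Another 49 regions, 36.8%, were called in a single library, against 37.2% of all regions. By cell line, 15 of 106 regions were called in all 8 786-O libraries, 14.2% against 9.7% of all 786-O regions. In RPTEC 12 of 97 were called in all 8 libraries, 12.4% against 8.18%.

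**Figure D1:**
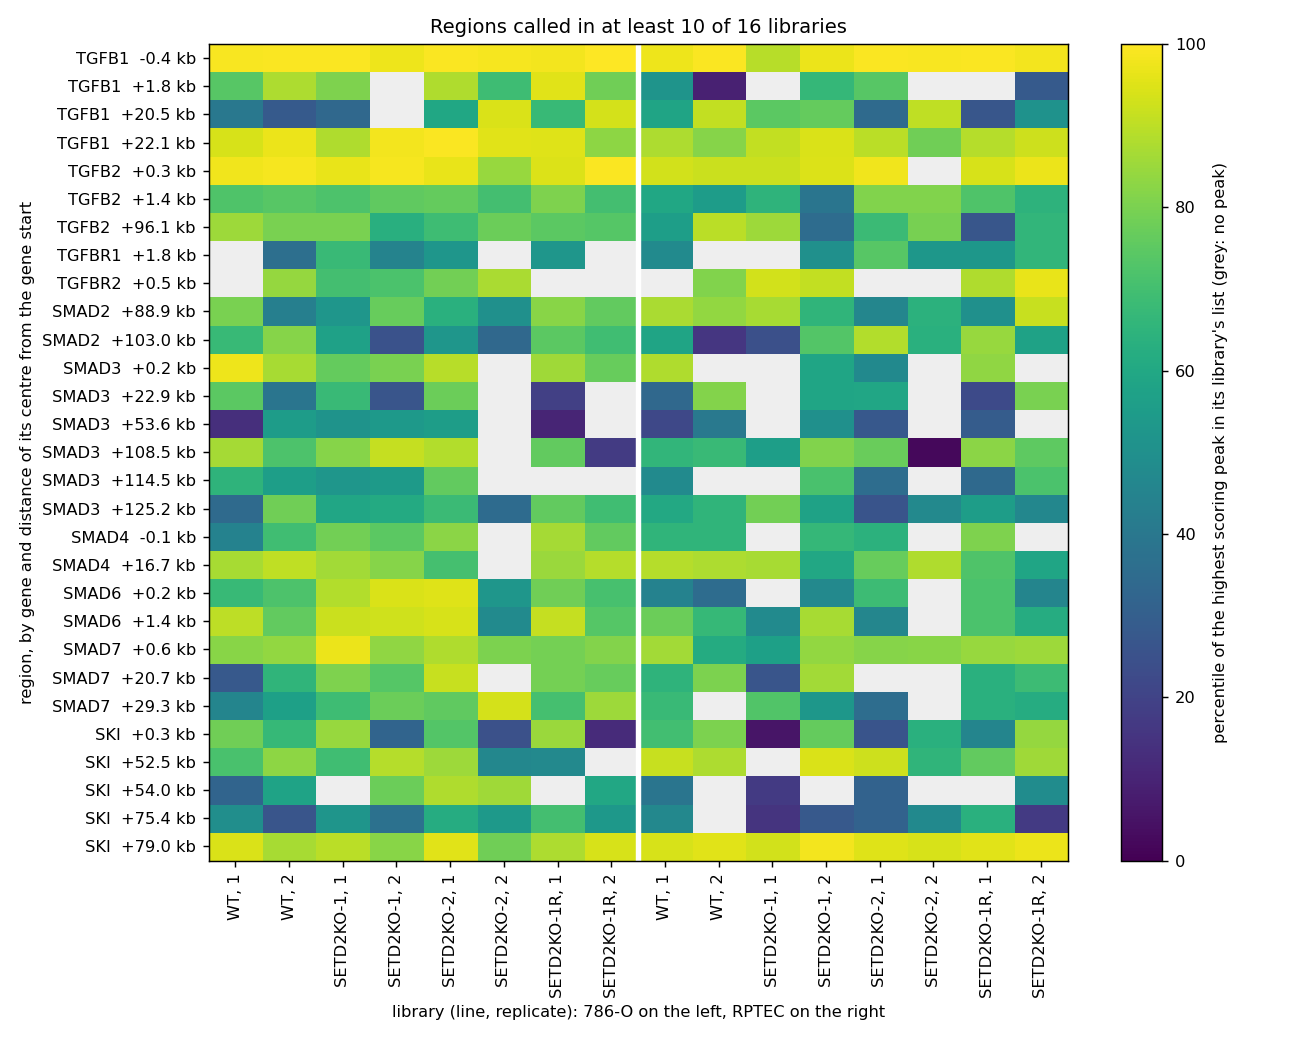
Each row is 1 of the 29 regions of the 10 genes called in at least 10 of the 16 libraries, named by gene and by the distance of its centre from the gene start in kb, and each column is 1 library. Colour is the percentile of the region's highest scoring peak within its library's list and grey is no peak. The TGFB1 region at the start and the SKI region near the gene end are high in all columns, while the column of 786-O SETD2KO-2 replicate 2 has grey cells in SMAD3 and SMAD4 where most other libraries have a peak.

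TGFB1 encodes the ligand most studied in kidney fibrosis and lies at chr19:41330323-41353922 on the minus strand. In 786-O it had 7 and 7 peaks in WT, 6 and 11 in SETD2KO-1R, 5 and 4 in SETD2KO-1, and 10 and 9 in SETD2KO-2. The SETD2KO-1 libraries lay below all SETD2-expressing libraries and the SETD2KO-2 libraries within their range. The mean was 7 ± 2.94 (SD, n = 4) in SETD2KO and 7.75 ± 2.22 (SD, n = 4) in SETD2-expressing libraries, with an exact permutation p of 0.8. In RPTEC it had 5 and 5 peaks in WT, 4 and 6 in SETD2KO-1R, 3 and 4 in SETD2KO-1, and 8 and 4 in SETD2KO-2, and the groups overlapped as well, with an exact permutation p of 1.

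The highest scoring peak of TGFB1 stood above the 90th percentile of its list in every library, from 90.7 in RPTEC SETD2KO-1 replicate 1 to 99.7 in 786-O SETD2KO-1R replicate 2. Scores have no stated scale, so a peak is placed by its percentile. This is its rank by score, counted from the lowest, as a percentage of the peaks of its list, with tied peaks at their mean rank. Among the 10 genes TGFB1 had the highest median percentile, 99.02, and the most peaks per length, 2.60 per 10 kb of gene body as a mean over libraries. In most libraries this peak lay in the region chr19:41352891-41355747, which spans the gene start. The peaks over the start reached 0.074 to 0.756 kb beyond it, and the neighbouring gene B9D2 begins 0.495 kb beyond it, so that this peak touched B9D2 in 1 library, 786-O SETD2KO-2 replicate 2. The second region called in all 16 libraries, chr19:41331126-41332537, ends 0.803 kb before the gene end, with a median percentile of 91.5. It held the highest scoring peak in 786-O SETD2KO-1 replicate 2, 786-O SETD2KO-2 replicate 1 and RPTEC SETD2KO-1 replicate 1. In RPTEC WT replicate 1 and SETD2KO-1R replicate 2 that peak lay in another region, chr19:41348485-41349118, called in 6 libraries.

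TGFB2 encodes a second ligand and lies at chr1:218345336-218444619 on the plus strand. Its peaks numbered 6, 7, 3 and 5 in the 786-O SETD2-expressing libraries, in the order WT and SETD2KO-1R, and 3, 5, 6 and 3 in SETD2KO-1 and SETD2KO-2. In RPTEC the same order gave 6, 4, 4 and 3 against 3, 4, 3 and 3. Both cell lines had a mean lower by 1 peak in SETD2KO, with groups that overlapped and exact permutation p-values of 0.571 and 0.371. A region at the start, chr1:218345136-218346053, was called in 15 libraries, all but RPTEC SETD2KO-2 replicate 2, and overlaps the antisense gene TGFB2-AS1, from which it cannot be told apart here. Regions at chr1:218346531-218346866 and chr1:218440990-218441972, the latter 2.65 kb before the gene end, were called in all 16.

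TGFBR1, the type I receptor, had the fewest peaks of the 10 genes, with 0 to 2 in a library and 12 of 16 libraries with any. In 786-O the values were 0, 1, 1 and 0 in WT and SETD2KO-1R and 1, 2, 2 and 0 in SETD2KO-1 and SETD2KO-2. In RPTEC they were 1, 1, 1 and 2 against 0, 2, 1 and 2, and neither cell line showed a separation. The gene body starts at chr9:99103647, where no library had a peak within 500 bp. RefSeq lists 8 start sites for TGFBR1, and those at 99105083 and 99105113 lay under peaks of 11 libraries. The first bases after the starts at 99103647 and 99104052 lay under a peak of no library. These peaks formed 1 region, chr9:99104979-99105827, whose scores in the libraries that called it ran from the 36.6th to the 74.1st percentile. The highest scoring TGFBR1 peak lay elsewhere, at chr9:99128613-99128915, in 786-O SETD2KO-2 replicate 1 alone and at the 89.1st percentile.

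TGFBR2, the type II receptor that binds the ligand, lies at chr3:30606356-30694142 on the plus strand. In RPTEC it had 4 and 6 peaks in WT and 4 and 3 in SETD2KO-1R, against 1 and 3 in SETD2KO-1 and 1 and 0 in SETD2KO-2. The 2 sides met at 3 peaks, held by SETD2KO-1R replicate 2 and SETD2KO-1 replicate 2. The mean was 1.25 ± 1.26 (SD, n = 4) in SETD2KO and 4.25 ± 1.26 (SD, n = 4) in SETD2-expressing libraries, a difference of 3 peaks with an exact permutation p of 0.0571, where 0.0286 is the smallest that 4 against 4 libraries allow. These libraries hold the value at which the sides met, so the sides are apart by construction when either is left out, and no test is given for that. The difference of SETD2KO minus SETD2-expressing libraries was -3.58 peaks without SETD2KO-1 replicate 2 and -3.42 peaks without SETD2KO-1R replicate 2.

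In 786-O, TGFBR2 had 1 and 2 peaks in WT and none in either SETD2KO-1R library, against 2 and 1 in SETD2KO-1 and 2 and 2 in SETD2KO-2. SETD2KO was higher by 1 peak here and lower by 3 peaks in RPTEC. That difference of 4 peaks between the cell lines had an exact permutation p of 0.00816 over 4900 arrangements of the libraries within cell lines, and an adjusted p of 1 over the 13420 genes. Of all genes 67, or 0.499%, had a p as low. Counted per 10000 listed peaks the difference was 1.46 with an exact permutation p of 0.00408. Without 786-O SETD2KO-2 replicate 2 the difference was 3.92 peaks.

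The TGFBR2 peaks of the 2 cell lines lay in part at different places. The highest scoring region over both cell lines was the start region, chr3:30606416-30607216, which reached the 96.9th percentile. As called in 786-O alone, chr3:30606547-30607216, it was found in all 4 SETD2KO libraries and in 1 SETD2-expressing library, WT replicate 2. In RPTEC the start region was called in 5 libraries, 2 of SETD2KO-1, 2 of SETD2KO-1R and WT replicate 2. It also overlaps the protein-coding gene LOC105377015, and the lists cannot tell the genes apart. In all, RPTEC had 11 TGFBR2 regions, 7 of them called in a single library, and 786-O had 3. The RPTEC region chr3:30636726-30637104, 30.4 kb from the start, was called in 3 SETD2-expressing libraries and no SETD2KO library. The RPTEC region chr3:30680976-30681789 was called in 3 SETD2-expressing libraries and 1 SETD2KO library.

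**Figure D2:**
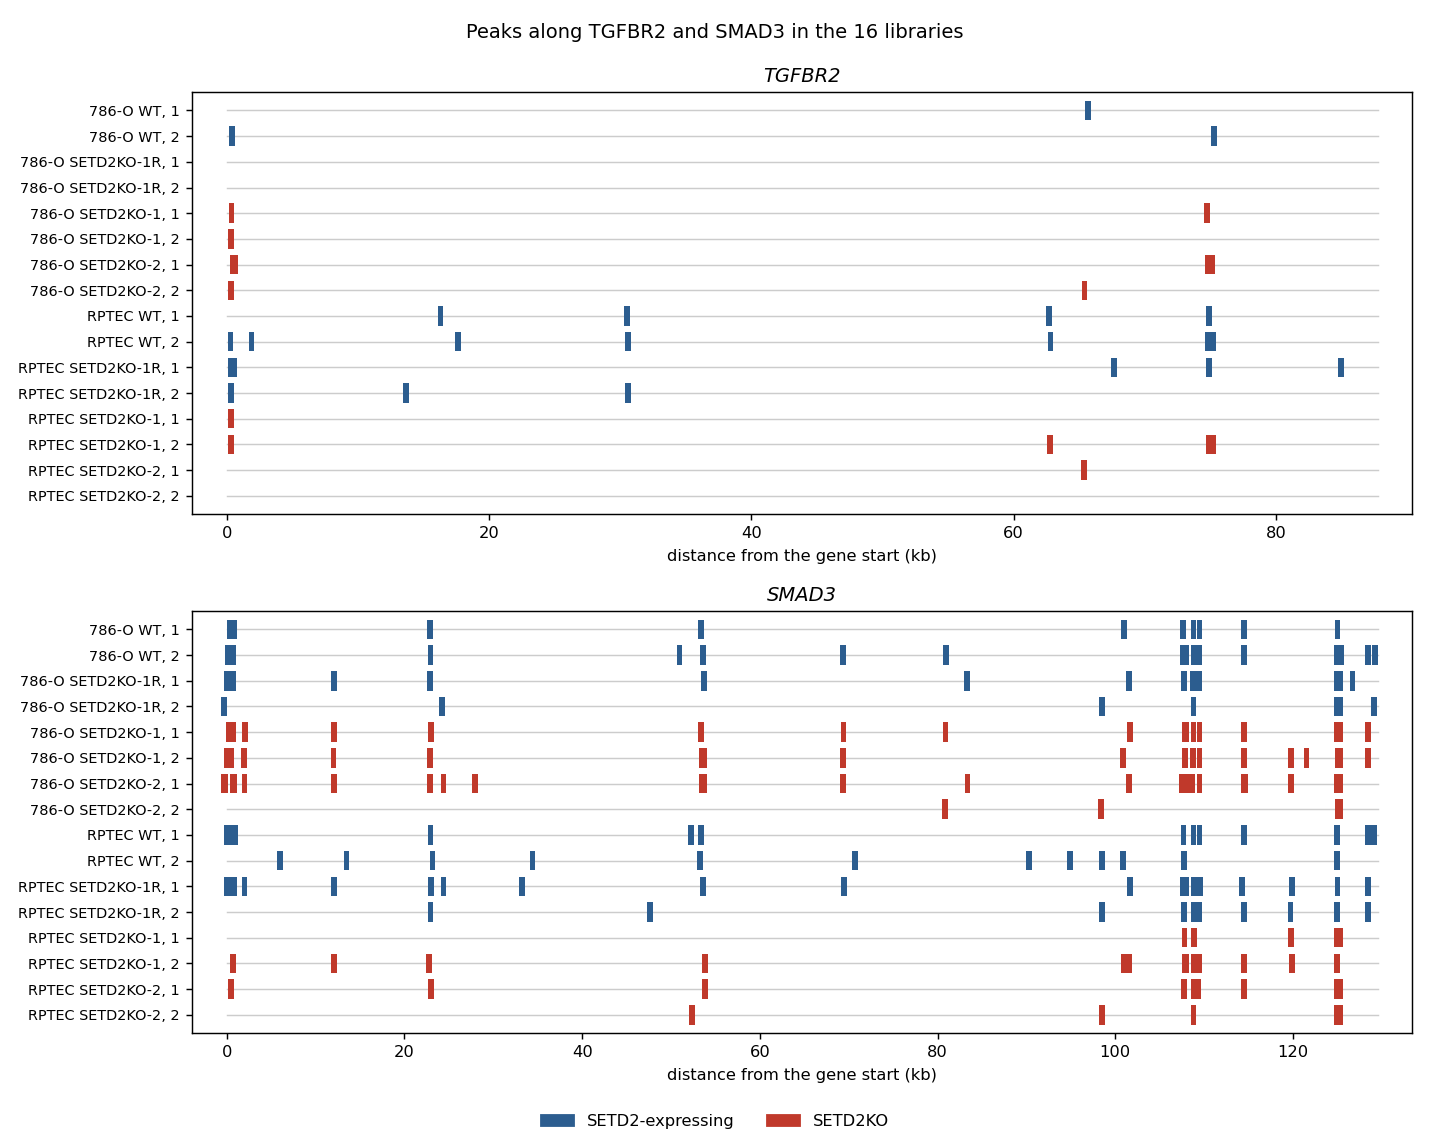
Each row is 1 of the 16 libraries and each block a peak, against the distance from the gene start in kb, with SETD2-expressing libraries in blue and SETD2KO libraries in red (short peaks are drawn wider than they are so that they can be seen). The RPTEC SETD2-expressing rows hold 3 to 6 TGFBR2 peaks and the RPTEC SETD2KO rows 0 to 3. The SMAD3 peak at 125 kb is present in every row.

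SMAD2, 1 of the receptor-activated SMADs, lies at chr18:47808957-47930872 on the minus strand. It had 2 to 6 peaks in 786-O and 2 to 4 in RPTEC, and its groups overlapped in both cell lines. Its 2 constant regions lay deep in the gene, at chr18:47827397-47828382 and chr18:47841703-47842214. The start region, chr18:47930499-47931316, was called in 3 of the 4 SETD2-expressing libraries of 786-O, in none of the 4 SETD2KO libraries, and in 1 RPTEC library. A region 33.8 kb from the start, chr18:47896708-47897046, was called in 7 libraries, and where it was called its percentile was 93.4 or higher.

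SMAD3, the other receptor-activated SMAD, lies at chr15:67065602-67195169 on the plus strand and had the most peaks of the 10 genes, with 167 in all and 3 to 17 in a library. In RPTEC it had 13 and 12 peaks in WT and 17 and 10 in SETD2KO-1R, against 4 and 11 in SETD2KO-1 and 7 and 4 in SETD2KO-2. 3 of the SETD2KO libraries lay below all SETD2-expressing libraries, and SETD2KO-1 replicate 2, with 11, lay above SETD2KO-1R replicate 2. The mean was 6.5 ± 3.32 (SD, n = 4) in SETD2KO and 13 ± 2.94 (SD, n = 4) in SETD2-expressing libraries, with an exact permutation p of 0.0571 and an adjusted p of 1. As for TGFBR2, these last libraries alone made the sides overlap, and the difference was -8 peaks without SETD2KO-1 replicate 2 and -7.5 peaks without SETD2KO-1R replicate 2. When peaks scoring in the lower 50% of their list were set aside, the difference was -2 peaks instead of -6.5, with an exact permutation p of 0.371. RPTEC SETD2KO-2 replicate 2, with 4 SMAD3 peaks, had the shortest of all lists at 19249 peaks, and per 10000 listed peaks the difference was -2.26 with the same p of 0.0571 by exact permutation.

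In 786-O, SMAD3 had 9 and 13 peaks in WT and 12 and 6 in SETD2KO-1R. It had 14 and 16 peaks in SETD2KO-1, and 16 and 3 in SETD2KO-2. The value of 3 came from the library that stood apart. With it SETD2KO was higher by 2.25 peaks with an exact permutation p of 0.571. The other 3 SETD2KO libraries lay above all SETD2-expressing libraries, and without it the difference was 5.33 peaks, given with no test because the library was singled out for its low values at these genes. The SETD2KO effects on SMAD3 in 786-O and RPTEC were 8.75 peaks apart, which had an exact permutation p of 0.0661. Without 786-O SETD2KO-2 replicate 2 they were 11.8 peaks apart, again as a description with no test.

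The SMAD3 region called in all 16 libraries, chr15:67190181-67191342, ends 3.83 kb before the gene end. Another at chr15:67172808-67175342 was called in 15 libraries, all but 786-O SETD2KO-2 replicate 2. The start region, chr15:67064817-67066774, was called in 7 786-O and 4 RPTEC libraries. A region 1.81 kb from the start, chr15:67067411-67067775, was called in 3 SETD2KO and no SETD2-expressing library of 786-O, but in RPTEC in 1 library, of SETD2KO-1R. A region near the gene end, chr15:67193851-67194193, was called in 3 SETD2-expressing and no SETD2KO library of RPTEC, and a peak there was called in 3 libraries of 786-O, 2 of SETD2KO-1 and 1 of WT.

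SMAD4, the common partner of the receptor-activated SMADs, lies at chr18:51030213-51085042 on the plus strand. In 786-O it had 2, 3, 4 and 3 peaks in WT and SETD2KO-1R, against 3, 3, 3 and 0 in SETD2KO-1 and SETD2KO-2. In RPTEC it had 2, 4, 3 and 1 against 2, 3, 2 and 2. Its peak numbers overlapped in both cell lines. The percentile of its highest scoring peak in 786-O was 86.8 and 90.4 in WT and 86.6 and 88.7 in SETD2KO-1R. It was 86.3 and 81.7 in SETD2KO-1 and 82.6 in SETD2KO-2 replicate 1, and SETD2KO-2 replicate 2 had no peak and was set to 0. All 4 SETD2KO values lay below all 4 SETD2-expressing values, with 86.3 and 86.6 as the nearest pair. The exact permutation p was 0.0286 and the adjusted p was 0.61. SMAD4 was the 1 gene of the 10 whose percentiles did not overlap in 786-O, where 4.68% of all genes tested did not. Without the library at 0 the 3 remaining values still lay below. Among genes with a peak in all 8 libraries TGFBR1, TGFBR2 and SMAD4 are left out, and none of the remaining genes of the 10 was apart. Within each replicate number the SETD2KO values of SMAD4 lay below the SETD2-expressing ones, but after centring on the mean of each replicate number, which for replicate 2 includes the 0, the sides overlapped. In RPTEC none of the 10 genes separated by percentile, against 4.08% of all genes tested, and the SMAD4 values ran from 66.7 to 88.3 in SETD2KO and from 58.7 to 88.7 in SETD2-expressing libraries.

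These percentiles came from more than 1 region. Most were from chr18:51046665-51047135, 16.5 kb from the start, which was called in 15 of 16 libraries, while the 86.6 of SETD2KO-1R replicate 1 and the 82.6 of SETD2KO-2 replicate 1 in 786-O came from the start region. At the region 16.5 kb from the start the sides overlapped in 786-O, as SETD2KO-1R replicate 1 stood at 84.8 and SETD2KO-1 replicate 1 at 86.3. The SMAD4 start region, chr18:51029680-51030578, was called in 12 and overlaps the uncharacterized gene LOC107985152.

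**Figure D3:**
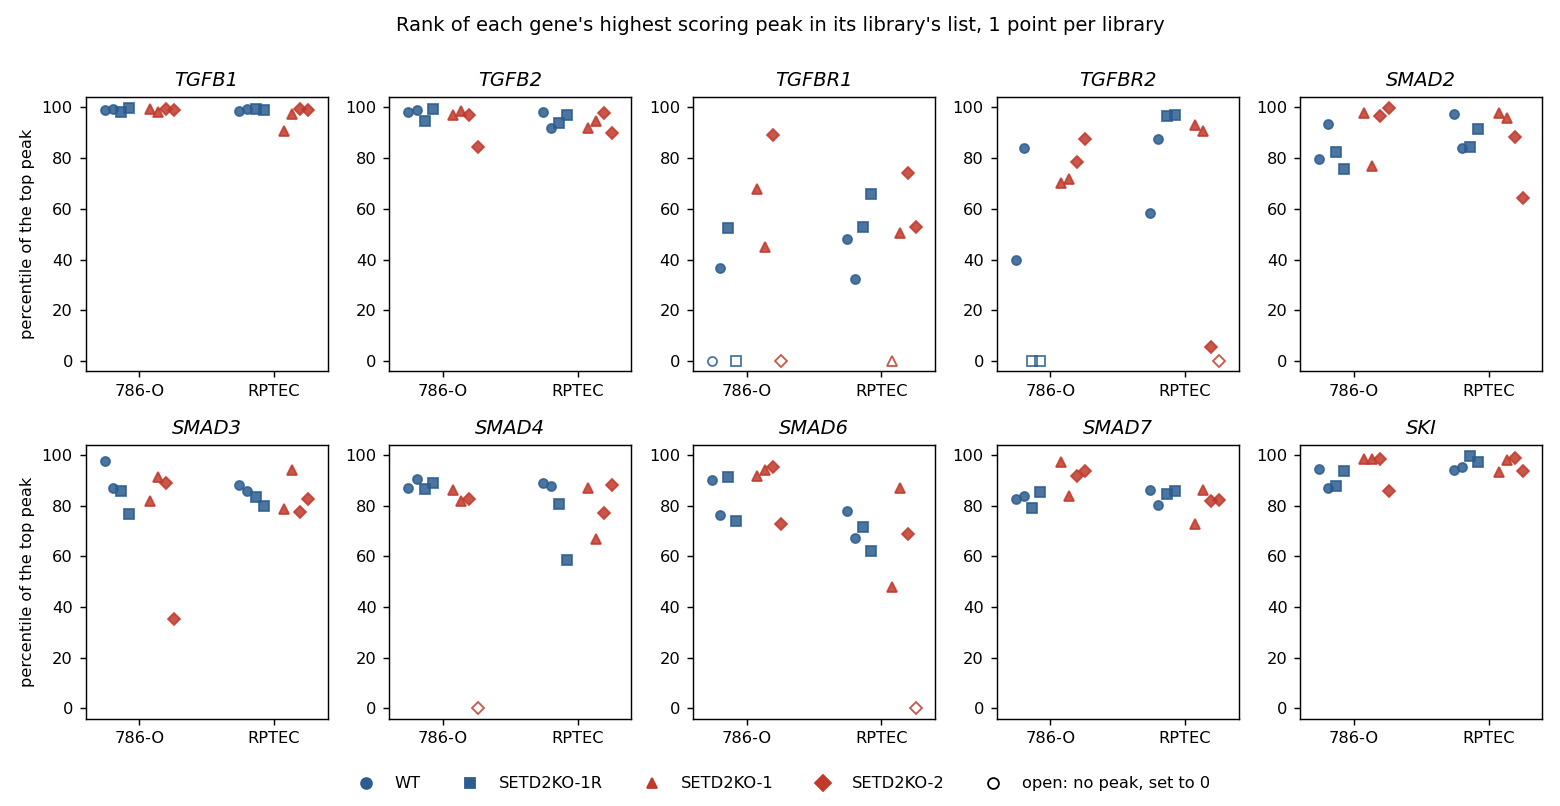
Each panel is 1 gene and each point 1 library, with the percentile of the gene's highest scoring peak in that library's list on the vertical axis, from 0 to 100, and open symbols where the gene had no peak. SETD2-expressing libraries (WT, SETD2KO-1R) are blue and SETD2KO libraries are red, left and right within each cell line. TGFB1 sits above 90 in all libraries, and in 786-O the SMAD4 values of SETD2KO lie below those of the SETD2-expressing libraries.

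SMAD6, an inhibitory SMAD best known for limiting BMP signals, lies at chr15:66702236-66782849 on the plus strand. In 786-O it had 3 and 3 peaks in WT and 5 and 3 in SETD2KO-1R, against 9 and 7 in SETD2KO-1 and 12 and 4 in SETD2KO-2. 3 SETD2KO libraries lay above all SETD2-expressing libraries, and the fourth, SETD2KO-2 replicate 2, lay above 3 of the 4. Within each replicate number the SETD2KO libraries lay above the SETD2-expressing ones, also after centring on the mean of each replicate number. The share of all genes apart with that block is given with the alternatives below. The mean was 8 ± 3.37 (SD, n = 4) in SETD2KO and 3.5 ± 1 (SD, n = 4) in SETD2-expressing libraries, with an exact permutation p of 0.0571 and an adjusted p of 1. The overlap came from SETD2KO-2 replicate 2, with 4 peaks, and SETD2KO-1R replicate 1, with 5, and it is gone by construction without either. The difference was 5.83 peaks without the first and 5 peaks without the second.

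The highest scoring SMAD6 peak lay in the start region, chr15:66702049-66702729, which was called in all 8 786-O and 6 RPTEC libraries and reached the 95.2nd percentile. The SMAD6 peaks were also counted by distance from the start. The distance of 5 kb was chosen after the values were seen, and the counts are a description only. Within 5 kb of the start, the 786-O libraries had 3, 3, 3 and 3 peaks in WT and SETD2KO-1R and 3, 4, 3 and 2 in SETD2KO-1 and SETD2KO-2. Further in they had 0, 0, 2 and 0 against 6, 3, 9 and 2. A region 25 kb from the start, chr15:66727226-66727547, was called in 3 SETD2KO libraries of 786-O and in no SETD2-expressing one, and one at 54.9 kb, chr15:66757184-66757984, in 3 SETD2KO libraries and 1 SETD2-expressing library. In RPTEC the number of SMAD6 peaks was 2, 2, 3 and 3 in WT and SETD2KO-1R and 1, 4, 5 and 0 in SETD2KO-1 and SETD2KO-2, with equal means of 2.5. The SETD2KO effects on SMAD6 in 786-O and RPTEC were 4.5 peaks apart, which had an exact permutation p of 0.104. Without 786-O SETD2KO-2 replicate 2 they were 5.83 peaks apart.

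**Figure D4:**
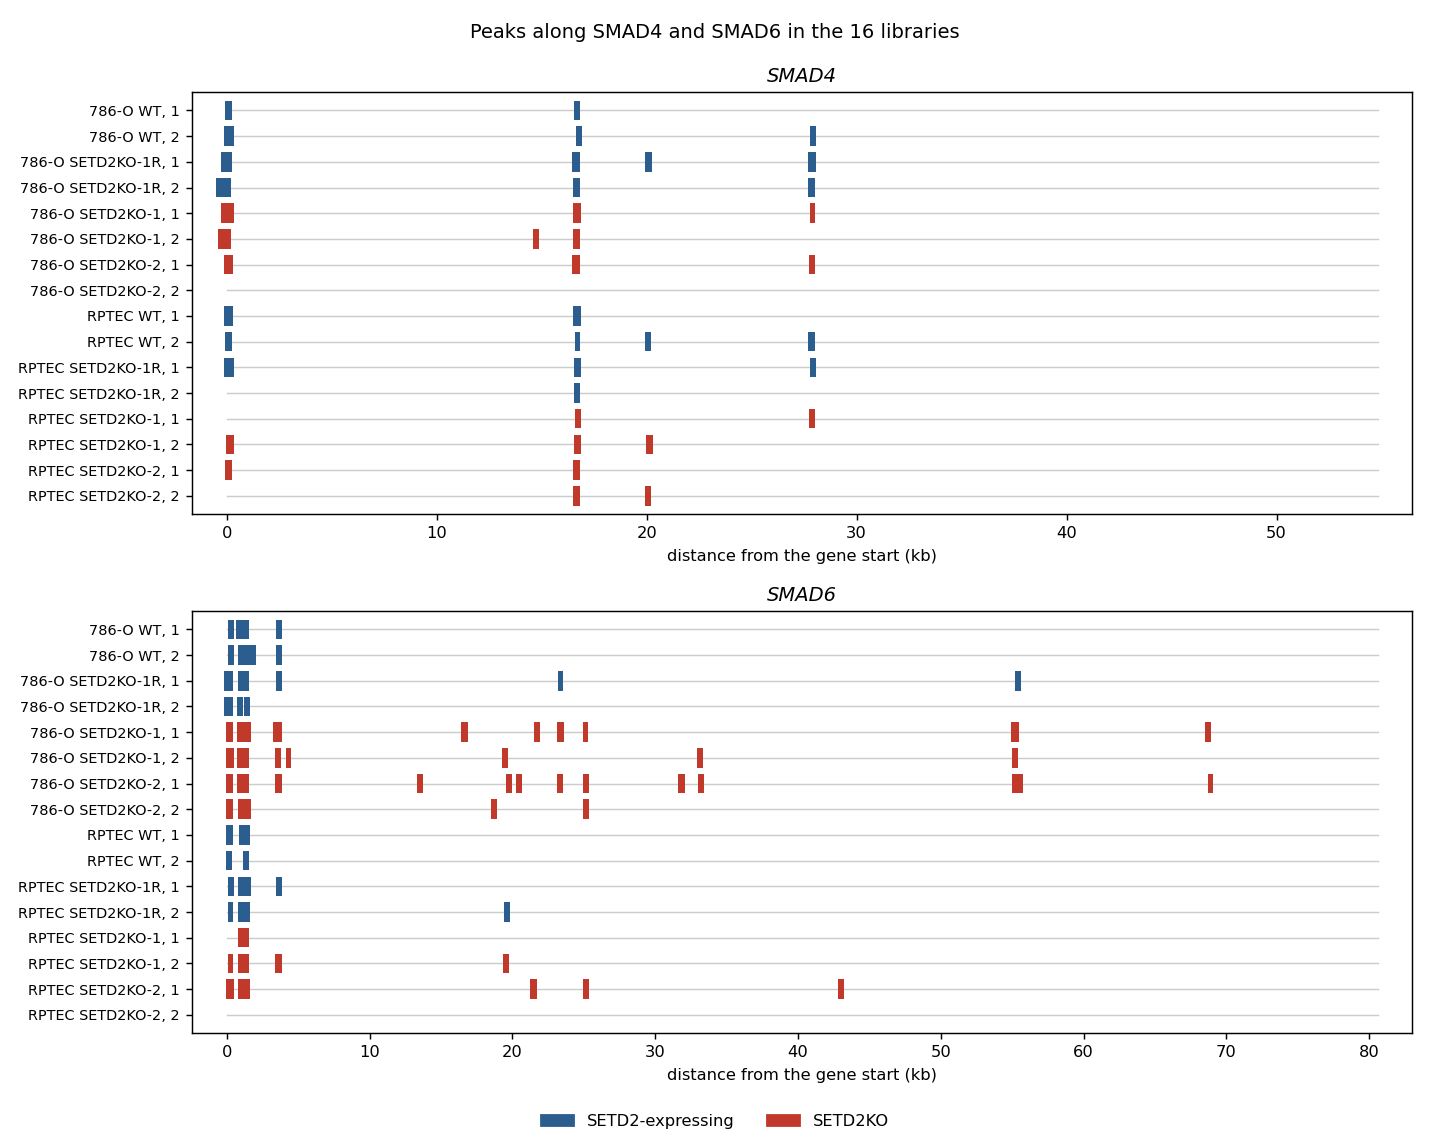
Each row is 1 of the 16 libraries and each block a peak, against the distance from the gene start in kb, with SETD2-expressing libraries in blue and SETD2KO libraries in red (short peaks are drawn wider than they are so that they can be seen). The SMAD6 peaks near the start are present in 15 rows, and those further than 5 kb in number 2 to 9 in the 786-O SETD2KO rows and 0 to 2 in the 786-O SETD2-expressing rows. The SMAD4 row of 786-O SETD2KO-2 replicate 2 is empty.

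SMAD7, the inhibitory SMAD that brings ubiquitin ligases to the TGF-beta receptors, lies at chr18:48919853-48950965 on the minus strand. It had 5, 5, 7 and 3 peaks in WT and SETD2KO-1R of 786-O and 5, 6, 6 and 2 in SETD2KO-1 and SETD2KO-2. In RPTEC it had 4, 2, 5 and 4 against 3, 5, 2 and 1. The groups overlapped in both cell lines, with exact permutation p-values of 1 and 0.486. The region just inside its start, chr18:48949900-48950808, was called in all 16 libraries with percentiles from 56.7 to 97.0. The region chr18:48921106-48922137, 1.25 kb before the gene end, was called in all 8 786-O libraries and in 6 RPTEC libraries.

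SKI, a co-repressor that binds SMAD complexes, lies at chr1:2228319-2310213. It had 9, 8, 7 and 7 peaks in WT and SETD2KO-1R of 786-O and 6, 10, 10 and 7 in SETD2KO-1 and SETD2KO-2. In RPTEC it had 10, 7, 10 and 9 against 4, 7, 12 and 5. The groups overlapped in both cell lines, with exact permutation p-values of 0.8286 and 0.4286. The region at its end with the lower coordinate was called in all 16 libraries. It lay at chr1:2228111-2229122 in 786-O, with percentiles from 12.4 to 84.9, and at chr1:2228283-2229123 in RPTEC, with percentiles from 5.52 to 84.2. Its region near the end with the higher coordinate, chr1:2306295-2308431, was called in all 16 libraries at the 78.2nd percentile or higher. Next to it, chr1:2305761-2306128 was called in 3 SETD2KO libraries of 786-O and no SETD2-expressing one, at the 98.3rd percentile or higher, and also in 2 RPTEC libraries.

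Over the 10 genes, without a block for the replicate number, the number of peaks was not separated by SETD2 status for any gene in either cell line. With that block SMAD6 was apart in 786-O, as given with the alternatives below. In 786-O no gene was higher in all 4 SETD2KO than in all 4 SETD2-expressing libraries, where 1.52% of the 12430 genes tested were, and none was lower, where 0.901% were. In RPTEC none was higher, where 1.01% of the 12185 genes tested were, and none was lower, where 1.41% were. After Benjamini-Hochberg adjustment of the exact permutation p-values no gene of the whole table passed 0.05 in either cell line, while 301 genes in 786-O and 295 in RPTEC had an unadjusted p under 0.05, none of them among the 10. The mean difference of SETD2KO minus SETD2-expressing libraries in 786-O was above 0 for 5 genes, TGFBR1, TGFBR2, SMAD3, SMAD6 and SKI, though below 0 for SKI per 10000 listed peaks, and below 0 for the other 5, where 45.0% of all genes tested were above and 40.2% below 0. In RPTEC it was above 0 for 1 gene, SMAD2, below 0 for 7 and equal for 2, where 30.5% of all genes tested were above and 53.6% below 0. The peaks of the 10 genes summed to 52.5 ± 15.3 (SD, n = 4) per SETD2KO library and 47 ± 6.27 (SD, n = 4) per SETD2-expressing library in 786-O. Without SETD2KO-2 replicate 2 the SETD2KO sum was 59.0 ± 9.85 (SD, n = 3), or 16.3 ± 1.15 per 10000 listed peaks. In RPTEC the sums were 34.5 ± 12.8 (SD, n = 4) and 48 ± 4.97 (SD, n = 4). Per 10000 listed peaks these were 15.1 ± 2.63 and 15.0 ± 0.53 in 786-O, and 13.5 ± 3.18 and 17.5 ± 2.55 in RPTEC (SD, n = 4 each). The RPTEC sums were 24 and 47 peaks in SETD2KO-1 and 44 and 23 in SETD2KO-2, against 43 to 54 in SETD2-expressing libraries.

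**Figure D5:**
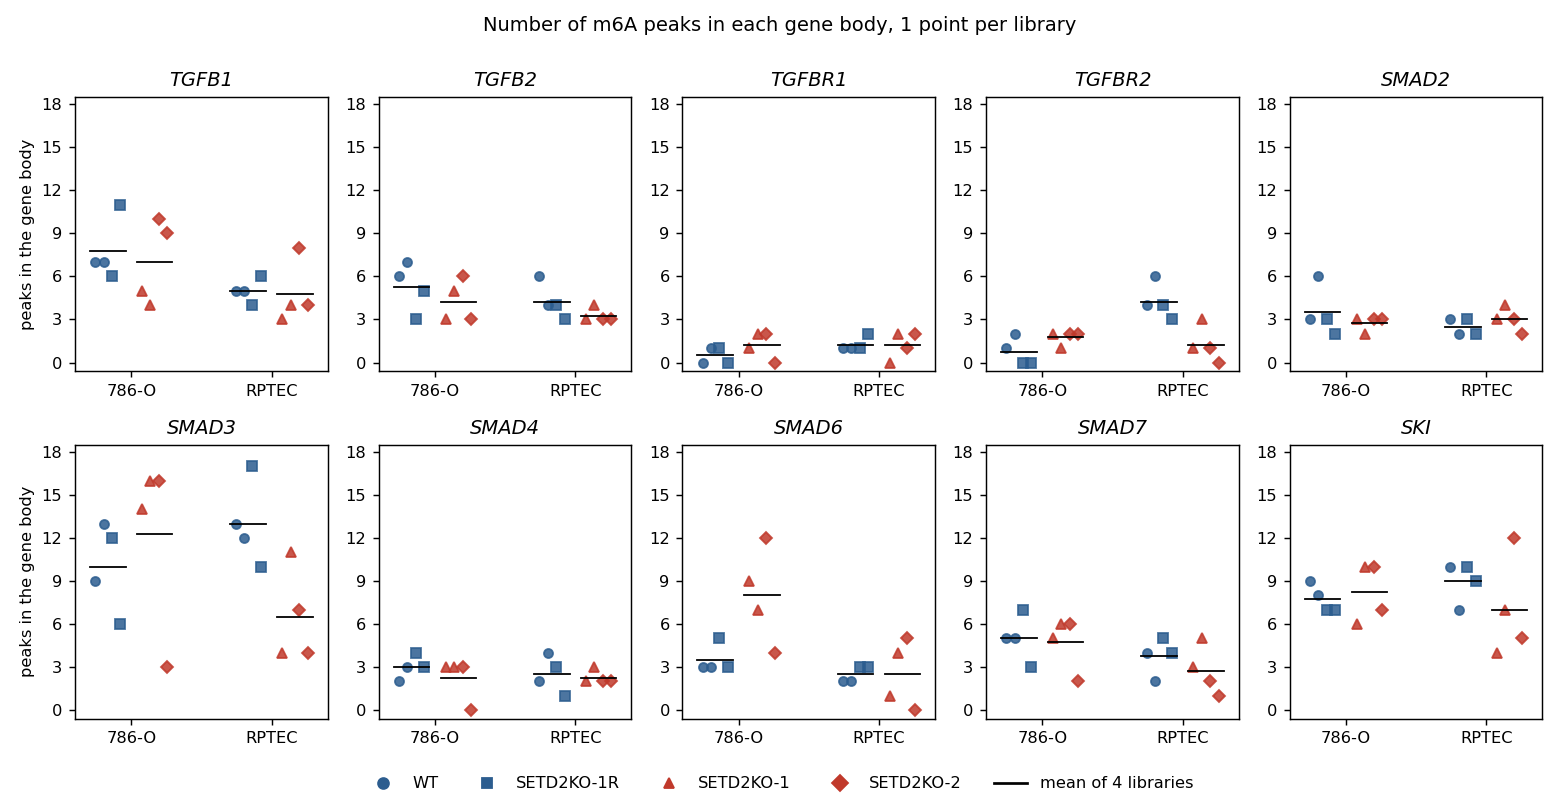
Each panel is 1 gene and each point 1 library, with the number of m6A peaks in the gene body on the vertical axis, SETD2-expressing libraries (WT, SETD2KO-1R) in blue and SETD2KO libraries in red, left and right within each cell line, and the mean of 4 libraries as a line. The sides overlap in every panel and cell line, least in SMAD6 of 786-O and in TGFBR2 and SMAD3 of RPTEC.

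None of the regions of the 10 genes was called on 1 side alone. In 786-O 0.475% of all regions were called in all SETD2KO and no SETD2-expressing library, and 0.147% the other way round. In RPTEC these shares were 0.263% and 0.212%. With at most 1 library out of place, 4 of the 106 regions in 786-O were on the SETD2KO side, in TGFBR2, SMAD3, SMAD6 and SKI, where 2.67% of all regions were. The SMAD2 start region was on the SETD2-expressing side, where 1.22% of all regions were. In RPTEC none of the 97 regions was on the SETD2KO side, where 1.55% of all regions were, and the regions of TGFBR2 and SMAD3 named above were on the SETD2-expressing side, where 1.88% of all regions were.

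Between the cell lines, 8 libraries against 8, SMAD6 and TGFB1 differed most in peak number. SMAD6 had 5.75 ± 3.33 peaks (SD, n = 8) in 786-O and 2.5 ± 1.6 (SD, n = 8) in RPTEC, with an exact permutation p of 0.0266 and an adjusted p of 0.184. By SETD2 status the SMAD6 means were 8 in 786-O and 2.5 in RPTEC for SETD2KO, but 3.5 and 2.5 for SETD2-expressing libraries. TGFB1 had 7.38 ± 2.45 (SD, n = 8) and 4.88 ± 1.55 (SD, n = 8), with an exact permutation p of 0.0406 and an adjusted p of 0.238. TGFBR2 had 1.25 ± 0.886 (SD, n = 8) in 786-O and 2.75 ± 1.98 (SD, n = 8) in RPTEC, with an exact permutation p of 0.0988. None of the 10 genes passed an adjusted p of 0.05, where 3.44% of the 13420 genes tested were higher in 786-O and 1.92% were higher in RPTEC. The 786-O lists were longer, and per 10000 listed peaks TGFB1 was higher in 786-O by 0.455 with an exact permutation p of 0.297, SMAD6 by 0.803 with 0.0381 by exact permutation. By percentile of the highest scoring peak SMAD6 stood at 85.6 ± 9.68 (SD, n = 8) in 786-O and 60.2 ± 26.9 (SD, n = 8) in RPTEC, with an exact permutation p of 0.00544 and an adjusted p of 0.0732, and none of the 10 genes passed an adjusted p of 0.05, where 6.28% of all genes did. The RPTEC value includes SETD2KO-2 replicate 2, which had no SMAD6 peak. No region of the 10 genes was called in all libraries of 1 cell line and none of the other, where 0.172% of all regions were found in 786-O alone and 0.152% in RPTEC alone.

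The order of the genes by median peak number over the 16 libraries was SMAD3 with 11.5, SKI with 7.5, TGFB1 with 5.5, SMAD7 with 4.5, TGFB2 with 4, SMAD2, SMAD4 and SMAD6 with 3, TGFBR2 with 2 and TGFBR1 with 1. The ranges of neighbours in this order overlapped throughout. Gene bodies ran from 23.6 kb in TGFB1 to 129.6 kb in SMAD3, and per 10 kb of gene body the order was led by TGFB1 with a mean of 2.60 peaks, SMAD7 with 1.31 and SKI with 0.977, and ended with TGFBR1 at 0.210.

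For the genes whose peak number ranged most widely over the libraries, the genes with the most similar profile across the 16 libraries were found by Spearman's rho among the 13420 genes. These values are descriptions, and the libraries share list length and cell line. For SMAD3, with 3 to 17 peaks, they were ABCC1 with 0.918, LOC124905135 with 0.895 and CHTF18 with 0.869. For SMAD6, with 0 to 12 peaks, they were GAS6 with 0.910, SEPTIN11 with 0.896 and WWC3 with 0.896. TGFB1 and SKI tied in the width of their ranges. For TGFB1 they were TM2D3 with 0.857, NDUFA11 with 0.801 and YJU2B with 0.796, and for SKI they were MAP7D1 with 0.867, ASCC2 with 0.834 and TAPBPL with 0.834.

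The rest of the pathway was described by 52 further genes in 5 lists, namely 14 ligands with genes of their latency and activation, 10 receptors, 6 SMADs and adaptors, 13 inhibitors and 9 targets. With a peak in some library, 45 of them were tested in 786-O and 48 in RPTEC. None of the 52 separated the sides by peak number in either cell line, in any of the 5 lists, read against the shares of all genes given above. The median difference of SETD2KO minus SETD2-expressing libraries was 0 over the 45 genes in 786-O, as over all genes, and -0.5 over the 48 genes in RPTEC, where it was -0.25 over all genes. In RPTEC 13 of the 48 had a higher and 30 a lower mean in SETD2KO, where 30.5% of all genes had a higher and 53.6% a lower one. In 786-O 18 of the 45 had a higher and 21 a lower mean, where 45.0% of all genes had a higher and 40.2% a lower one.

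Between the cell lines 5 of the 48 genes passed an adjusted p of 0.05, 2 of them with more peaks in 786-O and 3 with more in RPTEC, where 3.44% and 1.92% of all 13420 genes did. Of the 52 genes, a ligand and a secreted antagonist were called in every RPTEC and no 786-O library, as were 0.693% of the 13420 genes, and none in every 786-O and no RPTEC library, as were 0.425%. BMP4, a ligand of the BMP branch, had 1 or 2 peaks in each of the 8 RPTEC libraries and none in 786-O, with an adjusted p of 0.00831 by exact permutation. GREM1, which binds and blocks BMP ligands, had 1 to 3 peaks in each of the 8 RPTEC libraries and none in 786-O, with an adjusted p of 0.00831 by exact permutation. Both reached the smallest exact permutation p that 8 against 8 libraries allow, 0.000155. Any gene called in every library of 1 cell line and none of the other reaches it by construction. The 8 libraries of a cell line are pairs from 4 related lines, and these p-values treat them as separate. For line means, 4 against 4, the smallest exact permutation p would be 0.0286. The other 3 genes, named after their values were seen, had peaks in both cell lines. BMP2, another BMP ligand, had 2.38 ± 0.518 peaks in 786-O (SD, n = 8), and 1 peak in 5 of the 8 RPTEC libraries and none in the others, with an adjusted p of 0.00831 by exact permutation. SMAD9, a SMAD of the BMP branch, had 3.62 ± 1.41 in 786-O and 0.25 ± 0.463 in RPTEC (SD, n = 8 each), with the same adjusted p by exact permutation. LTBP2, a latent TGF-beta binding protein of the matrix, had 0.75 ± 1.39 in 786-O and 7.38 ± 3.29 in RPTEC (SD, n = 8 each), with an adjusted p of 0.0187 by exact permutation.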

How the data were processed

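The 16 IP libraries were grouped by line from GEO's labels, and Input libraries were not analysed here. The authors aligned paired reads with STAR, counted them with HTSeq, used E. coli RNA added to each sample for scaling, and ran MACS2 on each IP library against its Input at q ≤ 0.05, on hg38. Each list the authors deposited gives a score for every peak. Since no source states what scale the score has, peaks were compared by score rank inside their own list and never by score between lists. Read depth is unknown, and no counting interval can be given.

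Peaks were laid over gene bodies of the RefSeq table with Python 3.11.15, NumPy 2.4.6, pandas 2.3.3 and SciPy 1.17.1. Genes with a peak in at least 1 library compared were tested by two-sided exact permutation over libraries (70 arrangements for 4 against 4 and 12870 for 8 against 8), with Benjamini-Hochberg adjustment over all genes tested. Between SETD2 groups a gene was called where the libraries of the sides did not overlap, and between cell lines at an adjusted p under 0.05. The procedure was tested on simulated data. All 10 genes are named, and of the 52 further pathway genes those whose SETD2 groups did not overlap or that were called in all 8 libraries of 1 cell line and at most 1 of the other. Of the regions, those called in all 16 libraries and the highest scoring of each gene were named by rule, and the other regions named were chosen after their values were seen. The members, lists and tests were chosen with earlier results of these data known. Alternatives changed the overlap, the peaks kept, the scale, the clones or WT compared, the replicate number as a block, or left out 1 library at a time. Each library was left out in turn by plan, but the values printed without a single library were picked after seeing the data, and the summed peaks without 786-O SETD2KO-2 replicate 2 were added then. No peak was identical between any lists.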

Additional observations from a re-analysis of the deposited data

Results flagged for a closer look

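Of 80 groups of 4 libraries, 14 held a library whose gap to the nearest other passed Dixon's 95% critical value, where chance flags about 1 in 20 groups, or 4 of 80. The measures of a gene share libraries and are not independent, and whole numbers of peaks with 3 equal values always pass. 786-O SETD2KO-2 replicate 2 held 7 of the 14. It had 3 SMAD3 peaks against 14 to 16 in the other SETD2KO libraries of 786-O, and 0 SMAD4 peaks against 3. The percentile of its highest scoring peak was 84.5 for TGFB2, where the others had 96.8 to 98.4, and 35.2 for SMAD3, where they had 82.0 to 91.3. For SMAD4 it was 0 against 81.7 to 86.3, for SMAD6 72.6 against 91.8 to 95.2, and for SKI 85.8 against 98.3 to 98.5.

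786-O SETD2KO-1 replicate 2 had 1 TGFBR2 peak where the other 3 had 2, and 2 SMAD2 peaks where they had 3. Its SMAD2 percentile was 76.9 against 96.7 to 99.7. RPTEC SETD2KO-1 replicate 2 had 4 TGFB2 peaks where the other SETD2KO libraries had 3, and 3 SMAD4 peaks where they had 2. RPTEC SETD2KO-1R replicate 2 had 2 TGFBR1 peaks where the other SETD2-expressing libraries had 1. 786-O SETD2KO-1R replicate 1 had 5 SMAD6 peaks where the others had 3.

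TGFBR2 drew attention for the difference of 4 peaks between its SETD2KO effects in 786-O and RPTEC, with an exact permutation p of 0.00816 and an adjusted p of 1. With peaks in the lower 50% of each list by score set aside the difference was 2.5, with an exact permutation p of 0.0122.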

How the results depend on the processing

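Of 165 alternatives to the counts of genes or regions, 142 stayed within 1.5 times of the count reported, and of 667 for single genes 622 kept direction and call. The counts reported were all 0 except the 786-O count by percentile, which was 1, and a count of 0 stays only by remaining 0. No single gene was called by peak number, so no such call could be lost. Where a count or direction changed otherwise, the cause was not tested. Replicate numbers did not pair the libraries, since deviations of same-numbered libraries correlated between -0.179 and 0.184. With the replicate number as a block, the count of genes apart by peak number in 786-O went from 0 to 1 (SMAD6), where 3.12% of all genes were apart, and by percentile from 1 to 0 (SMAD4, whose sides did not overlap within either replicate number but did after centring on replicate means that include a 0). The other counts kept their value under the block.

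By peak number in 786-O, 3 genes were apart with SETD2KO-1 alone (TGFB1, SMAD3 and SMAD6, with 7.44% of all genes) and 1 against WT alone (SMAD6, with 8.87%). In RPTEC 2 were apart with SETD2KO-2 alone (7.91%) and 2 against WT alone (7.48%), TGFBR2 and SMAD3 each time. Among genes with a peak in all libraries, which leaves TGFBR1, TGFBR2 and SMAD4 out, 0 were apart by percentile in 786-O. With 1 library out of place allowed, 5 regions in 786-O and 2 in RPTEC were on 1 side.

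With 1 library left out at a time, the genes apart by peak number ranged from 0 to 2 in both cell lines, where 3.29% to 4.6% of all genes in 786-O and 3.35% to 4.4% in RPTEC were apart. These were SMAD3 and SMAD6 without SETD2KO-2 replicate 2 and SMAD6 without SETD2KO-1R replicate 1 in 786-O, and TGFBR2 and SMAD3 without SETD2KO-1 replicate 2 or SETD2KO-1R replicate 2 in RPTEC. Those apart by percentile ranged from 1 to 3 in 786-O and 0 to 0 in RPTEC. The 786-O percentile count was 2 without WT replicate 2 (TGFBR2, SMAD4), 3 without SETD2KO-1 replicate 2 (SMAD2, SMAD4, SMAD7) and 3 without SETD2KO-2 replicate 2 (SMAD4, SMAD6, SKI), with 7.79%, 7.19% and 8.52% of all genes. Regions on 1 side alone ranged from 0 to 2 in 786-O and from 0 to 1 in RPTEC, where 0.984% to 1.38% and 0.757% to 1.02% of all regions were on 1 side alone with the same libraries left out. These were TGFBR2 without WT replicate 2, SMAD6 without SETD2KO-1 replicate 2, SKI and SMAD3 without SETD2KO-2 replicate 2 and SMAD2 without SETD2KO-1R replicate 2 in 786-O, and SMAD3 without WT replicate 2 and TGFBR2 without SETD2KO-1R replicate 1 in RPTEC. Between cell lines the percentile count ranged from 0 to 1 (SMAD6, without RPTEC SETD2KO-1 replicate 2).

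Differences that were not called changed sign as follows. In 786-O, TGFB1 was 1.75 and SMAD3 -0.5 with SETD2KO-2 alone, SMAD7 78.75 in covered base pairs and 0.5 with SETD2KO-1 alone, and SKI -0.0943 per 10000 listed peaks and -0.25 against WT alone. In RPTEC, TGFB1 was 0.5 with the same number of peaks taken per library, 0.0892 per 10000 and 1 with SETD2KO-2 alone, and SMAD7 was 0.25 with SETD2KO-1 alone. Between cell lines, SMAD2 was -0.0945 per 10000. SMAD3 was -0.75 at the same number of peaks, -0.325 per 10000 and -1.5 in WT alone, and SMAD4 was -0.125 by peak midpoint, -0.25 at the same number, -0.127 per 10000 and -0.5 in WT alone. Leaving out single libraries of 786-O, TGFB1 ranged from -1.75 to 0.333, SMAD2 from -1.25 to 0.0833, SMAD7 from -0.917 to 0.667 and SKI from -0.0833 to 1.25. In RPTEC, TGFB1 ranged from -1.33 to 0.333 and SMAD4 from -0.75 to 0.25, and between cell lines SMAD2 ranged from -0.0357 to 0.554. WT alone, 2 against 2 libraries, cannot go below an exact permutation p of 0.333.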
